A study of Homo sapiens with 6 samples.

Results

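A set of 10 genes of prostaglandin E2 synthesis, breakdown, transport and reception were followed in SW480 cells with and without knockdown of HPSE, the gene of heparanase, which cleaves heparan sulfate chains. They were chosen by role: the phospholipase PLA2G4A, the cyclooxygenases PTGS1 and PTGS2, the prostaglandin E synthases PTGES, PTGES2 and PTGES3, the degrading enzyme HPGD, the transporter SLCO2A1, and the receptors PTGER2 and PTGER4. The choice was made with earlier results of these data known, and the study had named PTGS2 as differentially expressed. Of the 59192 features in the expression table, 9 were members of this group, and PTGES2 had no row under its own identifier. SW480 is an established line from a human colorectal adenocarcinoma. RNA sequencing covered 3 libraries of HPSE-knockdown cells, titled SW480-45, and 3 libraries of control cells, titled SW480-NC, and the study's methods describe 3 independent experiments. Both lines received Cas9 and a guide construct by lentivirus, with an HPSE guide in SW480-45 and a control construct in SW480-NC. Each group was 1 cell line, and whether a line was a single clone is not given in the sources used here, so the effect of the guide and other differences between the lines cannot be told apart.

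Prostaglandin E2 is made from arachidonic acid, which cytosolic phospholipase A2 releases from membrane phospholipids. The cyclooxygenases PTGS1 and PTGS2 (COX-1 and COX-2) turn arachidonic acid into prostaglandin H2, and the E synthases then convert it to prostaglandin E2. The signal is received by the G protein-coupled E receptors, of which PTGER2 and PTGER4 raise cyclic AMP, and it is ended by uptake through SLCO2A1 and oxidation by HPGD (15-hydroxyprostaglandin dehydrogenase). In the large intestine PTGS2 is commonly raised in tumours and HPGD is commonly lowered in them.

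The upstream sequences of both cyclooxygenase genes and of PLA2G4A are shown because the cyclooxygenases catalyse the step after PLA2G4A. Of these genes, only PTGS2 passed the test described below. Each sequence is the 250 bases before the RefSeq start on GRCh38.p14, written 5′ to 3′ on the strand of the gene. Capitals mark matches to 5 motifs: the TATA box (TATAAA, read on the gene's strand), and, on both strands, the short cyclic AMP response motif (CGTCA), a C/EBP motif (TTNNGNAA), the GC box (GGGCGG) and the E box (CACGTG).
PTGS2, chr1:186680424-186680673, minus strand: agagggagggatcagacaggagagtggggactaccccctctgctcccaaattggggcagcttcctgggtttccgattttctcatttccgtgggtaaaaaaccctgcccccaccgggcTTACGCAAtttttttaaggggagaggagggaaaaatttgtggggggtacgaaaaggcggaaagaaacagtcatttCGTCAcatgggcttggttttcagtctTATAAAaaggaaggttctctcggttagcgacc
PTGS1, chr9:122370283-122370532, plus strand: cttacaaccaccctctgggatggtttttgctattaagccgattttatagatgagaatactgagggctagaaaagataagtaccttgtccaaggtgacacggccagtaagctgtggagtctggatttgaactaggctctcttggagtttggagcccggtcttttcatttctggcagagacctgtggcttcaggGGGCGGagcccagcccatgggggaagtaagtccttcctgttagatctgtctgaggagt
PLA2G4A, chr1:186828699-186828948, plus strand: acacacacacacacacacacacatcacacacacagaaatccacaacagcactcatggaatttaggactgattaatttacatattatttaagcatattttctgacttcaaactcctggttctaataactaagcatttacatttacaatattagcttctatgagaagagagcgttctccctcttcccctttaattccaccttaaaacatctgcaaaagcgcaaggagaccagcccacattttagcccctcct
The PTGS2 window held a TATA box beginning 32 bases before the start, a cyclic AMP response motif at 58 bases and a C/EBP match at 133 bases, and 0 GC boxes. The PTGS1 window held 1 GC box, 58 bases before the start, and the PLA2G4A window held none of the 5 motifs. Of 35116 RefSeq promoter windows of this length, 6.8% held the TATA box, 21.2% the cyclic AMP response motif, 33.2% the C/EBP motif, 42.6% the GC box and 6.34% the E box. The PTGS1 gene had a further annotated start, whose window held 1 C/EBP match and 1 GC box. These matches are letters in a window and were not tested as binding sites.

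The messages also differed in the AU-rich pentamer ATTTA, which is bound by proteins that set how long a message lasts. The first 30 bases after the stop codon of PTGS2 are shown because 3 of the pentamers, in capitals, overlap there.
PTGS2 message (PTGS2-201), chr1:186674323-186674352, minus strand, GRCh38: aagtctaatgatcatATTTATTTATTTAta
The 3′ untranslated part of PTGS2 held 22 pentamers in 2562 bases, or 8.59 per kb, and 0.536% of the 11762 coding genes with at least 500 such bases were as dense. In PTGER4 there were 9 pentamers in 1357 bases, 6.63 per kb, a density reached by 2.45% of those genes. PTGS1 held 3 in 3159 bases, 0.95 per kb, and HPGD held 5 in 1779 bases, 2.81 per kb, which 32% of genes reached. The most pentamer-dense messages among the members therefore came from PTGS2, PLA2G4A and PTGER4, PLA2G4A with 8.46 per kb in a short part of 473 bases. The other densities were 5.28 per kb for PTGES3, 4.34 for PTGER2, 1.83 for SLCO2A1, 0.781 for PTGES and 0 for PTGES2.

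The libraries held 33221323 to 39802365 reads in genes, and 1 read was worth 0.903 to 1.06 normalized counts, so that a value of 0 allows up to 3 reads, or 2.71 to 3.18 normalized counts. HPSE itself was 136, 172 and 146 normalized counts in the knockdown libraries and 270, 295 and 246 in the controls, a log2 fold change of -0.83 (SE 0.14; adjusted p = 0.0547, limma) with no overlap. Of 8 epithelial markers 6 were in the table, with summed levels of 107943 to 116394 in the knockdown and 122823 to 129632 in the controls that were mostly KRT8, and CDX2 was low at 19 to 40.3. Of these 6, LGR5 fell (log2 fold change -0.53, adjusted p = 0.0426, limma), while VIL1 had a log2 fold change of 0.20 (adjusted p = 0.225, limma) without overlap between the groups. Of 5 leukocyte markers 2 were in the table, with sums of 59486 to 62229 against 67210 to 71984 that were almost wholly LYZ. Of 5 fibroblast markers 3 were in the table, with sums of 230 to 360 against 198 to 253, COL1A2 and LUM at no more than 3.77. All 3 endothelial markers were in the table, with sums of 28 to 43.2 against 12.6 to 26.5, and CDH5 was at no more than 2.9. The epithelial and leukocyte sums were lower in all knockdown libraries, and the endothelial sum was higher. The samples were cultures of an established line, so these sums are levels of marker messages and not shares of cell types. Any link between them and the values of PTGS2 or HPGD was not tested.

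Whether HPSE knockdown went with a change of these genes was asked with limma on log2(normalized count + 1). Of the 9 members in the table, 6 averaged at least 10 normalized counts over the libraries and entered the fit. At an adjusted p under 0.05, PTGS2 and HPGD fell and 0 members rose. PTGS2 was known from the study's results on these libraries, so nothing is read from this count beside the share of all features that follows. Of the 21703 features tested, 0.802% (174) were called, 0.47% (102) as lower and 0.332% (72) as higher. These features include loci without an Ensembl identifier, and 148 of the 12662 with one were called in a limma fit to those alone. At an unadjusted p under 0.05 in limma, 3 members were lower and 0 higher, where 16.2% of all features passed. The groups did not overlap for 2 of the 6 tested members, and for 23.4% of all features, so nothing is read from this count. The log2 fold change was above 0 for 3 of the 6 tested members and below 0 for 3. Their median, -0.41, lay between these sides with no member near it, and that of all features was 0.00.

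PTGS2 (ENSG00000073756, chr1:186671791-186680427, minus strand, GRCh38), the inducible cyclooxygenase, was at 49.6, 48.8 and 61.2 normalized counts in the knockdown libraries and 114, 113 and 103 in the controls. Every knockdown library was well below every control library. The means were 53.2 ± 6.98 (SD, n = 3) and 110 ± 6.17 (SD, n = 3), a 2.06-fold lower level. On the log2 scale the change was -1.04 (SE 0.17; 95% confidence interval -1.44 to -0.64; adjusted p = 0.0481, limma). The values rest on 166 reads in the knockdown group and 323 in the controls. The adjusted p lay close to the threshold and passed it in 0 of 6 fits to 5 libraries, where it ranged from 0.0833 to 0.188 with fold changes of -1.14 to -0.98. A two-sided exact permutation test of PTGS2 gave p = 0.1, the smallest that 3 libraries against 3 allow. The study chose PTGS2 among genes for qRT-PCR and reported accord with its sequencing, by values that were not examined here. In these bulk libraries, fewer cells with PTGS2 message and less message per cell cannot be told apart.

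PTGS1 (ENSG00000095303, chr9:122370530-122395703, plus strand), the cyclooxygenase that most tissues make without induction, was at 519, 542 and 859 normalized counts in the knockdown and 634, 576 and 522 in the controls. HPSE-knockdown replicate 3 stood above the other 5 libraries, and the groups overlapped. The means were 640 ± 190 and 577 ± 56.1 (SD, n = 3 each), with a log2 fold change of 0.11 (SE 0.20; 95% confidence interval -0.34 to 0.57; adjusted p = 0.813, limma). Without that replicate the log2 fold change of PTGS1 was -0.12, so these data give it no direction.

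Within each library, the ratio of PTGS2 to PTGS1 normalized counts, not corrected for length, was 0.0955, 0.09 and 0.0713 in the knockdown and 0.18, 0.196 and 0.197 in the controls. The ratio averaged 0.0856 ± 0.0127 against 0.191 ± 0.00975 (SD, n = 3 each), without overlap. As a description with no test, PTGS1 reads made up more of the cyclooxygenase reads in every knockdown library than in any control library.

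PLA2G4A (ENSG00000116711, chr1:186828953-186988981, plus strand), the cytosolic phospholipase A2 upstream of both cyclooxygenases, was at 1270, 1140 and 1358 normalized counts in the knockdown and 1224, 1159 and 1184 in the controls. The knockdown libraries lay on both sides of the controls. The log2 fold change was 0.08 (SE 0.09; 95% confidence interval -0.14 to 0.29; adjusted p = 0.723, limma), so that a fall as large as that fitted for PTGS2 lay outside the interval. The gene begins 149 kb beyond the end of PTGS2 on the same chromosome, with 1 annotated gene, PACERR, between them. PACERR is a non-coding RNA gene that starts 195 bases from PTGS2 on the opposite strand, and it was at 0, 0 and 0 normalized counts in the knockdown and 2.09, 1.93 and 0 in the controls, all under the 3-read limit.

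Of the prostaglandin E synthases, PTGES3 (ENSG00000110958, chr12:56663341-56688408, minus strand), the cytosolic synthase that is also the HSP90 co-chaperone p23, was at 9679, 13586 and 15411 normalized counts in the knockdown and 10949, 17982 and 9052 in the controls. Both groups spread over a wide range and overlapped fully, with means of 12892 ± 2929 and 12661 ± 4705 (SD, n = 3 each). The log2 fold change was 0.06 (SE 0.26; 95% confidence interval -0.55 to 0.67; adjusted p = 0.932, limma), and its sign turned in 4 of the 17 alternative fits. Near copies of PTGES3 could share reads with it, although they drew few reads: PTGES3P1 was at 194 to 280 normalized counts over the 6 libraries (log2 fold change 0.02, adjusted p = 0.965, limma). PTGES3P3 had a log2 fold change of 0.35 (adjusted p = 0.641, limma), and PTGES3P4 and PTGES3P5 were at no more than 2.09.

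PTGES (ENSG00000148344, chr9:129738331-129753047, minus strand), the inducible microsomal synthase that commonly works with PTGS2, was near the limit of detection. It was at 11.6, 10.8 and 15.1 normalized counts in the knockdown and 0, 1.93 and 6.36 in the controls. All knockdown libraries were above all controls, the opposite order to PTGS2. These values rest on 39 reads against 8, and the mean over the 6 libraries, 7.63, was under the minimum for the test. When every feature was tested without that minimum, the log2 fold change was 2.27 with an adjusted p of 0.409 (limma), and the unadjusted p was 0.0147. A two-sided exact permutation test gave p = 0.1.

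PTGES2 (chr9:128120693-128128462, minus strand), a membrane-associated synthase, is not analysed here for want of a row. The antisense gene PTGES2-AS1 was at 19, 12.6 and 3.77 normalized counts in the knockdown and 4.18, 7.73 and 2.12 in the controls, which overlap. In GENCODE 29 this gene lies just upstream of PTGES2 on the opposite strand and does not overlap it, so its reads say nothing of the PTGES2 message.

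HPGD (ENSG00000164120, chr4:174490177-174523154, minus strand), which inactivates prostaglandin E2 by oxidation, was at 743, 641 and 723 normalized counts in the knockdown and 1360, 1231 and 1304 in the controls. The groups were far apart relative to their spread. The means were 702 ± 54 and 1298 ± 64.4 (SD, n = 3 each), a 1.85-fold lower level. The log2 fold change was -0.89 (SE 0.09; 95% confidence interval -1.11 to -0.67; adjusted p = 0.0132, limma), resting on 2182 and 3805 reads. HPGD passed in 4 of 6 fits to 5 libraries, and gave adjusted p values of 0.0651 without control replicate 1 and 0.0543 without control replicate 2.

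The synthetic enzyme PTGS2 and the degrading enzyme HPGD both fell, with overlapping confidence intervals. The ratio of PTGS2 to HPGD normalized counts was 0.0667, 0.0761 and 0.0847 in the knockdown and 0.0838, 0.0918 and 0.0789 in the controls. It averaged 0.0758 ± 0.00904 and 0.0848 ± 0.00651 (SD, n = 3 each), and the groups overlapped.

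SLCO2A1 (ENSG00000174640, chr3:133928145-134052184, minus strand), the prostaglandin transporter that brings the molecule into cells for oxidation, was at 0, 0 and 0 normalized counts in the knockdown and 1.05, 3.86 and 0 in the controls. Its highest library held 4 reads, so no difference could be detected at this depth.

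Both receptors drew few reads. PTGER4 (ENSG00000171522, chr5:40679498-40693735, plus strand), the E receptor EP4, was at 4.22, 7.22 and 19.8 normalized counts in the knockdown and 39.7, 16.4 and 22.3 in the controls. HPSE-knockdown replicate 3 overlapped the controls, and the means were 10.4 ± 8.26 and 26.1 ± 12.1 (SD, n = 3 each). The log2 fold change was -1.40 (SE 0.60; 95% confidence interval -2.79 to -0.02) with an adjusted p of 0.301 (limma), and an exact permutation test gave p = 0.2. The knockdown libraries held 4, 8 and 21 PTGER4 reads, so the difference did not pass the test and its size is poorly set. The pseudogene PTGER4P2, a near copy, was at no more than 1.06 in any library. PTGER2 (ENSG00000125384, chr14:52314305-52328606, plus strand), the E receptor EP2, was at 0, 0 and 3.77 normalized counts in the knockdown and at 0 in all controls, so a ratio of PTGER4 to PTGER2 could not be formed.

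**Figure D1:**
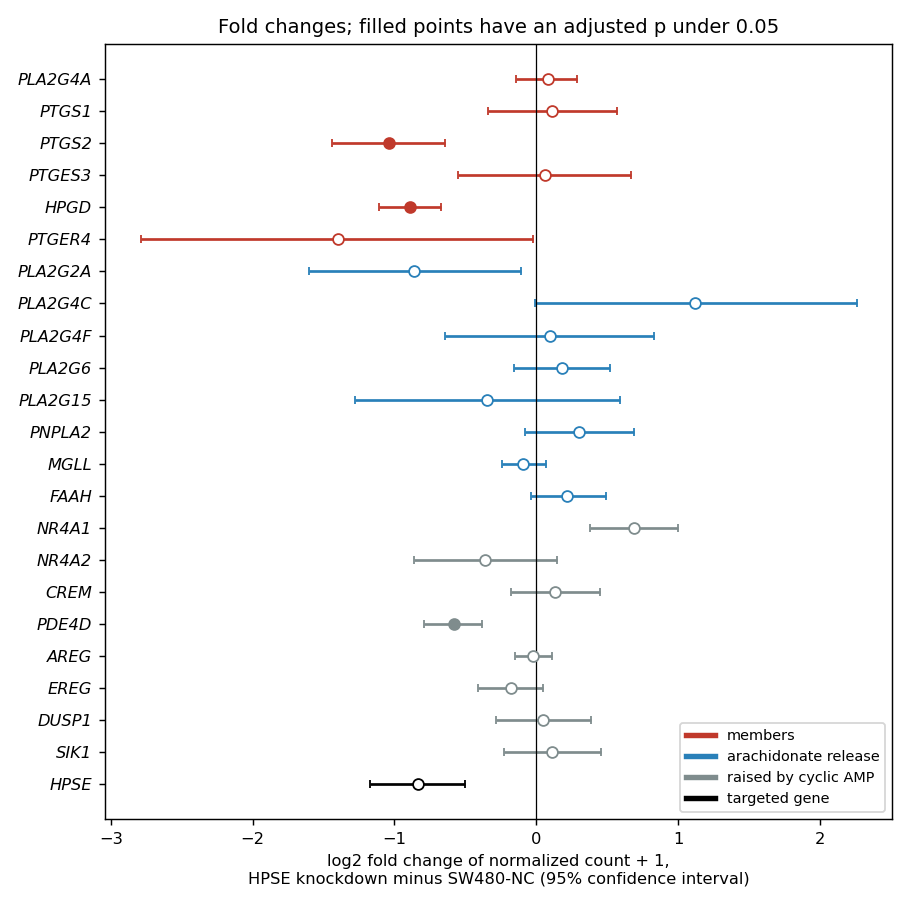
Log2 fold change of normalized count + 1, HPSE knockdown minus SW480-NC (x axis), with its 95% confidence interval for the 6 tested members, the tested genes of arachidonate release, the tested genes raised by cyclic AMP, and HPSE. Filled points have an adjusted p under 0.05 in limma. PTGS2 at -1.04, HPGD at -0.89 and PDE4D at -0.58 are filled, and PTGER4 has the widest interval, -2.79 to -0.02.

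Levels were compared between genes only after division by exon length. PTGES3 was highest, at 3725 ± 1384 normalized counts per kb of exon in the controls and 3793 ± 862 in the knockdown (SD, n = 3 each). PLA2G4A followed at 414 ± 11.4 and 437 ± 38.1 per kb. Next in the controls were HPGD at 235 ± 11.7 per kb and PTGS1 at 99.6 ± 9.69. In the knockdown HPGD was at 127 ± 9.77 per kb and PTGS1 at 111 ± 32.8, so that these neighbours, separate in the controls, overlapped. PTGS2 was at 20.9 ± 1.17 per kb in the controls and 10.1 ± 1.33 in the knockdown, below PTGS1 in every library. PTGER4 was at 6.6 ± 3.06 and 2.63 ± 2.08 per kb, and PTGES at 1.46 ± 1.72 and 6.59 ± 1.19. PTGER4 had the higher mean of this pair in the controls and PTGES in the knockdown. SLCO2A1 and PTGER2 were at or near 0.

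**Figure D2:**
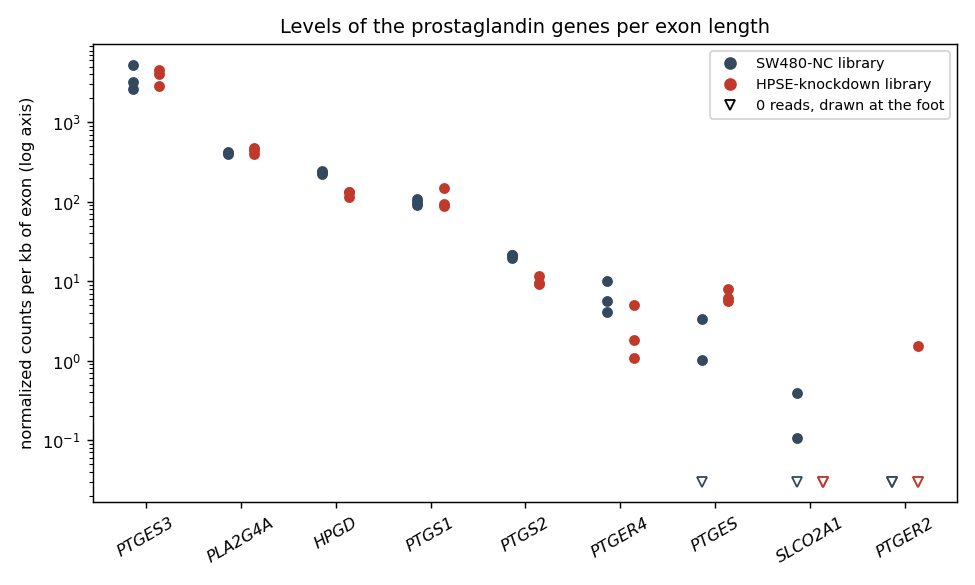
Normalized counts per kb of exon (log axis) of 9 prostaglandin genes in each library, ordered by the control mean, where open triangles at the foot stand for 0 reads. PTGES3 is near 3725 in the controls, and PTGS2 lies below PTGS1 in all 6 libraries.

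The genes around the members were taken from 8 lists of 66 genes, of which 45 were in the table and 36 were tested. At an adjusted p under 0.05, 1 of these genes (PDE4D) was lower and 0 were higher in limma, and at an unadjusted p under 0.05 3 were lower and 2 higher. Of all features, 0.802% passed the adjusted threshold and 16.2% the unadjusted one. The direction was up for 20 and down for 16, and the groups did not overlap for 9 of the 36, beside the 23.4% of all features.

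Of the genes that release arachidonic acid, 8 of 10 were tested, 0 were called in either direction and the median log2 fold change was 0.14. PLA2G4C, a calcium-independent relative of PLA2G4A, had the highest value at 1.12 (adjusted p = 0.313, limma), and the secreted phospholipase PLA2G2A the lowest at -0.86 (adjusted p = 0.251, limma). Of the genes that take arachidonic acid up and return it to phospholipids, 4 of 6 were tested and 0 called, with a median of 0.05, from 0.16 for the acyl-CoA synthetase ACSL1 to -0.01 for the acyltransferase MBOAT7. Neither list on arachidonate supply held a gene that passed the test, where 0.802% of all features passed, so nothing is read from these counts.

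Of the other prostanoid synthases, 3 of 9 were tested and 0 called, with a median of 0.11. The prostamide and prostaglandin F synthase PRXL2B was at a log2 fold change of 0.49 (adjusted p = 0.711, limma), and thromboxane synthase TBXAS1 at -0.09 (adjusted p = 0.562, limma). The only tested gene of 6 in the breakdown and export list was ABCC4, which pumps prostaglandins out of cells, at -0.08 (adjusted p = 0.608, limma), so HPGD had no tested companion among the other breakdown enzymes. Of 7 other prostanoid receptors 1 was tested, the prostacyclin receptor PTGIR, at 0.10 (adjusted p = 0.907, limma). In the lipoxygenase branch, which competes for arachidonic acid, 3 of 8 were tested and 0 called, with a median of 0.14 and the highest value at 0.18 for LTA4H, leukotriene A4 hydrolase (adjusted p = 0.324, limma).

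Proteins that bind AU-rich messages such as that of PTGS2 gave 8 tested genes of 10, 0 called, and a median log2 fold change of -0.08. The stabilizing protein ELAVL1 (HuR) had a log2 fold change of 0.10 (adjusted p = 0.561, limma). The destabilizing protein ZFP36 (tristetraprolin) was at 690, 471 and 276 normalized counts in the knockdown and 880, 690 and 625 in the controls, which overlap, at -0.69 (adjusted p = 0.324, limma).

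Among genes that cyclic AMP raises, downstream of the E receptors, 8 of 10 were tested, with a median log2 fold change of 0.02, 1 lower and 0 higher. PDE4D, a phosphodiesterase that breaks down cyclic AMP, was at 739, 748 and 778 normalized counts in the knockdown and 1217, 1079 and 1098 in the controls, without overlap. Its log2 fold change was -0.58 (SE 0.09; adjusted p = 0.0397, limma), and it passed in 0 of 6 fits to 5 libraries, with a highest adjusted p of 0.163 without HPSE-knockdown replicate 1. The orphan nuclear receptor NR4A1, chosen after its values were seen, went the other way, at 338, 327 and 311 normalized counts against 213, 173 and 221 (log2 fold change 0.69, adjusted p = 0.0779, limma).

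Genes whose pattern over the 6 libraries was most like that of PTGS2 were ranked by the root mean square difference of centred log2 values, over 9703 genes that averaged 50 or more normalized counts. The nearest were EEIG2 (0.10 log2 units), the neutrophil chemokine CXCL8 (0.12), the transcription cofactor DACH1 (0.13), the nucleoside transporter SLC28A3 (0.13) and HPGD (0.14). CXCL8 was at 204, 247 and 287 normalized counts in the knockdown and 583, 520 and 430 in the controls, a log2 fold change of -1.05. SLC28A3 was at 380, 385 and 376 against 749, 865 and 779, a log2 fold change of -1.07. Their falls are a description, as they were picked for likeness to PTGS2. HPGD, a member by its role, was also among these 5, but its place follows from its fall in the same libraries and adds nothing to that result.

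**Figure D3:**
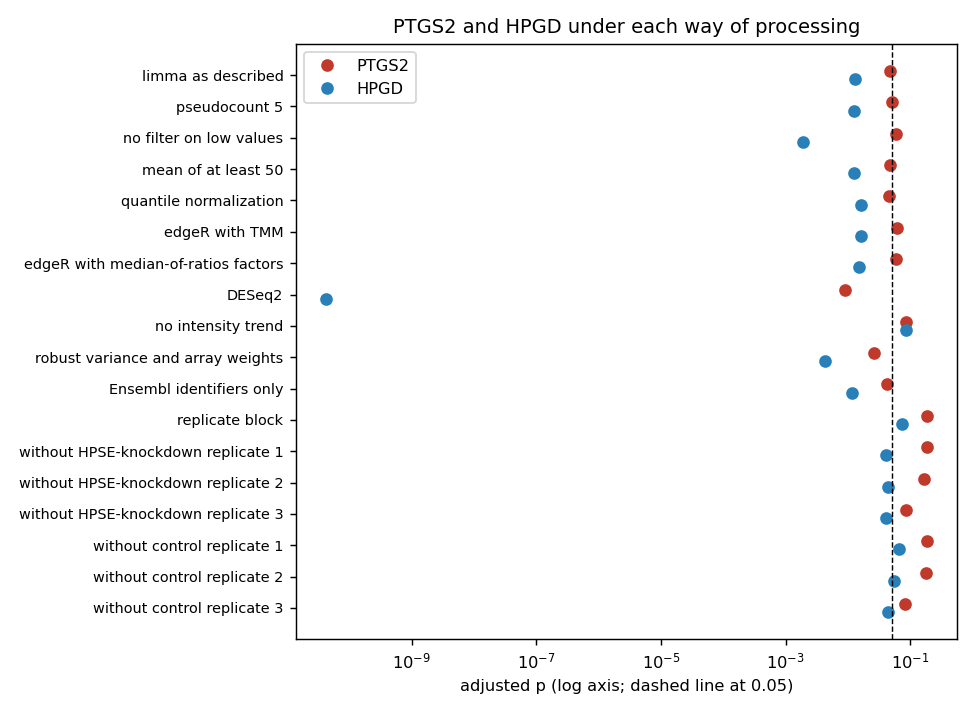
Adjusted p (log axis) of PTGS2 and HPGD under the limma fit described and 17 alternative ways of processing or leaving out a library (y axis), with a dashed line at 0.05. PTGS2 lies close to the line, from 0.00907 with DESeq2 to 0.188 without HPSE-knockdown replicate 1, and HPGD lies mostly to its left.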

How the data were processed

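RNA from SW480-45 (HPSE-knockdown) and SW480-NC cells was prepared with the NEBNext Ultra kit and sequenced on an Illumina instrument. The labels name GRCh38, HISAT2, bcl2fastq and DESeq2 without roles, and the study's methods name Cuffdiff. The assembler of the 33265 loci in the table without Ensembl identifiers is not given in the sources used here. The values deposited by the authors are a signal per gene, counts divided by 1 size factor per library. Whole reads were recovered for 100% of values (tolerance 0.01), with 33221323 to 39802365 reads per library.

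Differential expression used limma 3.58.1 (R 4.3.3) with an intensity trend on log2(normalized count + 1), over 21703 features with a mean of at least 10, with Benjamini-Hochberg adjustment over all of them. Fold changes of low genes on this scale can be smaller or larger than those of count models. SLCO2A1 had a log2 fold change of -1.10 in limma without the filter and -3.21 with DESeq2. PTGER4 was at -1.40 in the limma fit described and -1.32 with DESeq2. edgeR 4.0.16 and DESeq2 1.42.0 on recovered reads, a pseudocount of 5, other filters, quantile normalization, other variance models, a fit to Ensembl genes, a replicate block and leaving out each library were alternatives. The steps were tested on simulated counts. Intervals and limits cover these libraries only, as 1 line per group was sequenced.

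Symbols were matched for 25595 of 25927 Ensembl identifiers. Positions, exon lengths and 3′ untranslated parts are from GENCODE 29 (GRCh38), and upstream sequences from RefSeq (GRCh38.p14), where 9 of the 10 members matched and SLCO2A1 did not. Upstream windows with more than 30 bases in exons of coding transcripts were not printed (the printed PTGS2 window holds 4 such bases and that of PTGS1 holds 3). The members, lists and rules were chosen with earlier results of these data known. Named genes are all members, HPSE, in each pathway list the genes called or otherwise the largest rise and the largest fall in the fitted value (the lipoxygenase list held no fall), the near copies and neighbours in the table, and the 5 genes most like PTGS2. Marker genes are named beside their list's sum, chosen after their values were seen. Same-numbered libraries of the groups did not deviate together (correlations 0.002, -0.02 and 0.007).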

Additional observations from a re-analysis of the deposited data

How the results depend on the processing

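The fall of PTGS2 kept its direction in all 17 alternatives, with log2 fold changes of -1.14 to -0.98, and passed an adjusted p of 0.05 in 5 of the 11 that kept all libraries. It missed the threshold with a pseudocount of 5 (-0.99, adjusted p = 0.0510), no filter (-1.04, 0.0581), edgeR with TMM (-1.04, 0.0608), edgeR with median-of-ratios factors (-1.04, 0.0591), limma without the trend (-1.04, 0.0859) and the replicate block (-1.04, 0.185). Without 1 library it ranged from -1.14 to -0.98 and passed in 0 of 6. The direction of PTGS2 could not turn there, as the groups did not overlap, and several other fits share the same log2 values. The number of members called, 2 in the limma fit described, was 1 with a pseudocount of 5, no filter and both edgeR fits, 0 without the trend and with the replicate block, and 0 to 1 without 1 library. HPGD ranged from -0.93 to -0.82, passed in 9 of the 11 and missed without the trend (adjusted p = 0.0859) and with the replicate block (0.0737). Without 1 library PTGS1 ranged from -0.12 to 0.25 and PTGES3 from -0.15 to 0.35. The direction turned for PTGS1 without HPSE-knockdown replicate 3 (-0.12), and for PTGES3 with robust variance and array weights (-0.12) and without HPSE-knockdown replicate 3 (-0.08), control replicate 1 (-0.01) and control replicate 3 (-0.15). PTGER4 (-1.96 to -0.96) and PLA2G4A (0.02 to 0.14) kept theirs and did not pass in any fit that gave an adjusted p. DESeq2 gave PTGER4 no adjusted p, and the fit to features with a mean of at least 50 did not hold it. PDE4D passed with edgeR (adjusted p = 0.0458) and missed with the replicate block (0.185). Among all features 174 were called, against 429 with robust variance and array weights and 825 with DESeq2. There were 11 without the trend, 12 with the replicate block and 29 to 93 without 1 library, fewest without control replicate 1. Fits without 1 library also hold fewer libraries, and the cause of the lower counts was not tested. Whether the replicate numbers pair the libraries is not given in the sources used here, although same-numbered libraries did not deviate together over the features tested. The log2 fold changes of PTGS2 (-1.04) and HPGD (-0.89) were the same with the replicate block by construction, as the block is balanced. That sameness is therefore no support for either fall. Depth limits PTGES, PTGER4, PTGER2 and SLCO2A1.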
